A study of Arabidopsis thaliana with 9 samples.

Results

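Karrikin and strigolactone signalling was followed in Arabidopsis thaliana seedlings through 10 genes, chosen by identifier from the 24640 genes listed in the files. They are the receptor genes KAI2 and D14, the F-box gene MAX2, the repressor genes SMAX1, SMXL2, SMXL6, SMXL7 and SMXL8, and the response genes DLK2 and KUF1. All 10 were listed in the files and all 10 passed the filter on low counts. RNA sequencing was done on whole seedlings of the bbx20 bbx21 bbx22 triple mutant (bbx202122), of the hy5 mutant and of the Col-0 wild type (WT), with 3 libraries per genotype. All 9 samples were seedlings aged 4 days that had spent 3 days in red light of 80 µmol per square metre and second at 22 °C, after 2 days of stratification at 4 °C, a white light pulse of 2 h and 22 h of darkness. The labels name no allele for either mutant and give an ecotype for WT only, so any other sequence differences between the lines and the named mutations cannot be told apart. The labels do not say whether replicates were grown separately, so the p-values cover the spread of these libraries, which may be technical.

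KAI2 is an alpha/beta-hydrolase that perceives karrikins, compounds from burnt plant material, and is thought to perceive an endogenous ligand as well. D14 is its relative that perceives strigolactones. Each receptor works with MAX2, the F-box subunit of an SCF ubiquitin ligase, to mark repressor proteins for degradation. SMAX1 and SMXL2 are the repressors removed after karrikin perception and SMXL6, SMXL7 and SMXL8 those removed after strigolactone perception. In seedlings the karrikin branch is known for limiting hypocotyl growth in light, and loss of SMAX1 and SMXL2 is known to raise BBX20 transcripts. DLK2 and KUF1 are transcripts that karrikin raises, and KUF1 encodes an F-box protein that limits signalling through KAI2.

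Library totals lay between 21577036 and 22778710 expected counts. Levels of a gene between genotypes are given below as CPM, counts per 1000000 counts after TMM scaling, and levels between genes as FPKM, which accounts for gene length. Calls, and the words rose and fell, rest on a Benjamini-Hochberg adjusted p under 0.05 in edgeR's quasi-likelihood test over 20751 genes. Green shoot markers were abundant in every library, with RBCS1A, LHCB1.3 and LHCB2.1 summing to 26313 to 29720 CPM in bbx202122, 31323 to 32219 CPM in hy5 and 28716 to 31915 CPM in WT, where 2 of the 3 fell in bbx202122 and 1 rose and 1 fell in hy5. The root hair markers EXPA7, EXPA18 and COBL9 summed to 21.4 to 26.0 CPM in bbx202122, 12.8 to 16.3 CPM in hy5 and 46.0 to 51.1 CPM in WT, and all 3 fell in each mutant. The phloem markers SUC2, SEOR1 and APL summed to 181 to 202 CPM in bbx202122, 202 to 223 CPM in hy5 and 183 to 191 CPM in WT, and 2 of the 3 rose in hy5. The xylem markers IRX3, XCP1 and XCP2 summed to 104 to 137 CPM in bbx202122, 133 to 144 CPM in hy5 and 101 to 141 CPM in WT. Of the 3, IRX3 (adjusted p = 0.041) and XCP2 (adjusted p = 0.048) rose in hy5, but the hy5 and WT libraries overlapped for all 3. The seed markers CRA1, CRU3, OLEO1 and SESA3 summed to 9.72 to 20.7 CPM in bbx202122, 43.9 to 68.0 CPM in hy5 and 13.1 to 50.3 CPM in WT, with WT replicate 3 the highest of its group. Of the 4 seed markers 1 fell in bbx202122 and 1 rose in hy5. Over all genes tested, 8.62% rose and 8.27% fell in bbx202122, and 19.6% rose and 19.8% fell in hy5, each against WT. The part of these tissues in the results below was not tested, and in whole seedlings fewer cells of a type and less RNA per cell cannot be told apart.

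In the TAIR10.1 annotation KAI2 (AT4G37470) lies on chromosome 4 from 17616659 to 17618656 and D14 (AT3G03990) on chromosome 3 from 1033579 to 1035237. MAX2 (AT2G42620), a gene with 1 exon, lies on chromosome 2 from 17756069 to 17758468. SMAX1 (AT5G57710) lies on chromosome 5 from 23384255 to 23388465 and SMXL2 (AT4G30350) on chromosome 4 from 14847583 to 14851248. SMXL6 (AT1G07200) lies on chromosome 1 from 2208477 to 2212718, SMXL7 (AT2G29970) on chromosome 2 from 12776208 to 12780069 and SMXL8 (AT2G40130) on chromosome 2 from 16765709 to 16769279. DLK2 (AT3G24420) lies on chromosome 3 from 8862813 to 8865239 and KUF1 (AT1G31350) on chromosome 1 from 11221267 to 11222827. None of the 50-base words in the exons of the 10 genes occurred elsewhere in the genome (0 of 1378 to 3918 words per gene). SMXL8 overlaps AT2G09115 on the other strand, and whether the counting used strand is not stated, so its counts are uncertain. The other 9 overlapped no annotated gene.

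The 250 bases before the annotated start of D14, MAX2, SMAX1, SMXL2 and KUF1 are shown because these 5 genes rose in hy5 and HY5 is known to bind G-boxes (CACGTG) and other sites with an ACGT core. They were read 5′ to 3′ on the coding strand from the TAIR10.1 genome, with each ACGT in capitals. D14 is shown from chr3:1033329-1033578 (plus strand), MAX2 from chr2:17755819-17756068 (plus strand), SMAX1 from chr5:23384005-23384254 (plus strand), SMXL2 from chr4:14847333-14847582 (plus strand) and KUF1 from chr1:11222828-11223077 (minus strand).
D14 upstream window: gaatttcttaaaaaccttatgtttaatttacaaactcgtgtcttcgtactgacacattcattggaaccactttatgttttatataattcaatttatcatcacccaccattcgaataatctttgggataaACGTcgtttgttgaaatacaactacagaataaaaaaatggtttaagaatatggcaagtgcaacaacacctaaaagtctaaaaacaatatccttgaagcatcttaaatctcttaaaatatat
MAX2 upstream window: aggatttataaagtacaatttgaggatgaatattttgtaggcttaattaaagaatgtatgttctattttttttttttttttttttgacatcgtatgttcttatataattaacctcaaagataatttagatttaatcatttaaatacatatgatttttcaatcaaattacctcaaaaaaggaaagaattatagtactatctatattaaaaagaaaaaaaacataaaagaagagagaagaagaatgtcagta
SMAX1 upstream window: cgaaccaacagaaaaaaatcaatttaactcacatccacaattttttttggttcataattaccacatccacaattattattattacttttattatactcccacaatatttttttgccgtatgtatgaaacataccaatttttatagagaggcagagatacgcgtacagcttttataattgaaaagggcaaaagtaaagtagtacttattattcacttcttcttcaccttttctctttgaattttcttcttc
SMXL2 upstream window: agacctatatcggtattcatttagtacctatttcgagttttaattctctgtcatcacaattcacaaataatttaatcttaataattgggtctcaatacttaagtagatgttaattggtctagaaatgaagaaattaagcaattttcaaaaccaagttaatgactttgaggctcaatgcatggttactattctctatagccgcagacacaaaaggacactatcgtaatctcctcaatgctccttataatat
KUF1 upstream window: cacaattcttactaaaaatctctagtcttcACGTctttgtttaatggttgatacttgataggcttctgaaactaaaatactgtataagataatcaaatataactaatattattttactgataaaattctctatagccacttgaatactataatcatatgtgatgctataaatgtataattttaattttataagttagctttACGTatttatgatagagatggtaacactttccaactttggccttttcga
The window of D14 held 1 ACGT, whose first base stood 121 bases before the start. The windows of MAX2, SMAX1 and SMXL2 held 0, and that of KUF1 held 2, with first bases at 220 and 49 before the start. On both strands, ACGT occurred in 4 of the 10 members' windows, against 44.1% of 27443 windows of protein-coding genes. CACGTG occurred in 0 of the 10, against 6.49% of all windows. CACGTC, or GACGTG on the other strand, occurred in 2 of the 10, KUF1 and SMXL8, against 5.89%, and each such match holds an ACGT counted above. These matches describe letters and show no binding.

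In WT the 10 transcripts spanned a wide range of FPKM, with the receptor KAI2 and the repressor SMAX1 highest and SMXL8 lowest. KAI2 averaged 29.8 ± 0.95 FPKM and SMAX1 27.8 ± 0.39 FPKM in WT (SD, n = 3 each), levels above those of 83.1% and 81.7% of listed genes. D14 followed with 19.6 ± 0.86 FPKM, MAX2 with 16.1 ± 0.84 FPKM and SMXL6 with 13.9 ± 0.95 FPKM. SMXL7 averaged 9.14 ± 0.77 FPKM, SMXL2 7.48 ± 0.59 FPKM and KUF1 5.78 ± 0.35 FPKM. DLK2 averaged 3.12 ± 0.48 FPKM and SMXL8 0.590 ± 0.030 FPKM. Each of these genes lay above the next in every WT library. Among the repressors of the karrikin branch SMAX1 was thus far above SMXL2, and in the strigolactone branch SMXL6 and SMXL7 were far above SMXL8.

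The order differed between genotypes at the top. SMAX1 averaged 30.5 ± 1.8 FPKM in bbx202122 and 35.6 ± 1.5 FPKM in hy5, above KAI2 at 27.7 ± 1.7 FPKM in bbx202122 and 30.04 ± 1.3 FPKM in hy5. In each mutant the libraries of SMAX1 did not overlap those of KAI2, as in WT, where KAI2 was the higher. In bbx202122 SMXL7 (9.20 to 9.86 FPKM) and SMXL2 (8.07 to 9.33 FPKM) overlapped. In hy5 SMXL2 (8.08 to 8.41 FPKM), SMXL7 (7.51 to 8.16 FPKM) and KUF1 (6.32 to 7.52 FPKM) overlapped with their neighbours. The other neighbours did not overlap in either mutant. The authors' length of SMXL6, a mean weighted over its 2 transcripts, was 2779 to 2866 bases in bbx202122, 2808 to 3000 bases in hy5 and 2725 to 2885 bases in WT, which bears on its FPKM and not on its counts.

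**Figure D1:**
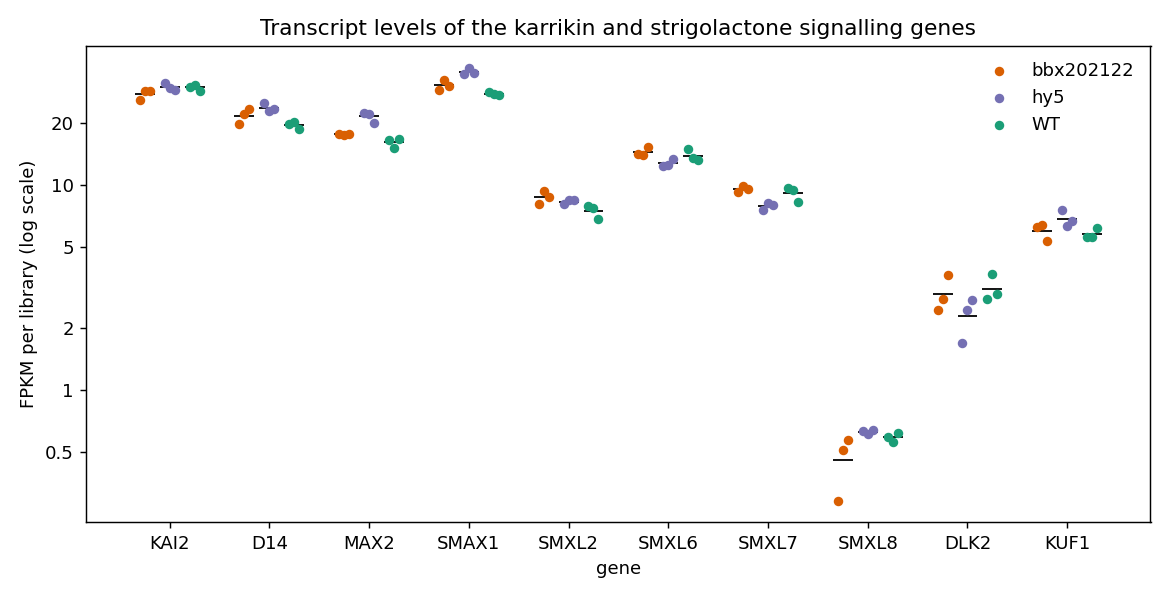
FPKM of the 10 genes in each library (log axis), grouped by genotype, with a short line at the mean of 3 libraries. KAI2 and SMAX1 are the highest in all 3 genotypes, SMXL8 the lowest, and SMAX1 stands above KAI2 in both mutants.

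The comparison of hy5 with WT asks how the transcripts of the pathway stand when HY5, a bZIP factor that promotes seedling development in light, is mutated. MAX2, SMAX1, D14, SMXL2 and KUF1 rose by up to 1.39-fold, and none of the 10 fell. The 5 called of 10 compare with 39.5% of all genes tested. The 5 higher compare with 19.6% of all genes, and the 0 lower with 19.8%. Without WT replicate 2, hy5 replicate 1 or hy5 replicate 3 the count was 3, MAX2, SMAX1 and D14. The median log2 fold change of the 10 was 0.17, against 0.00 over all genes tested. The libraries of hy5 and WT did not overlap for 6 of the 10, against 51.6% of all genes.

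MAX2, which serves both receptors, had 56.1, 55.4 and 49.8 CPM in the hy5 libraries, against 39.3, 36.3 and 40.5 CPM in the WT libraries. Every hy5 library lay above every WT library. MAX2 was 1.39-fold higher in hy5 (log2 fold change 0.47 ± 0.06 SE, adjusted p = 2.8e-05).

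D14, the strigolactone receptor, had 43.0, 39.1 and 40.0 CPM in hy5, against 32.4, 33.5 and 31.2 CPM in WT, without overlap. It was 1.26-fold higher in hy5 (0.33 ± 0.07, adjusted p = 0.0014). KAI2, the karrikin receptor, had 48.7, 45.4 and 44.4 CPM in hy5 and 44.0, 45.2 and 43.1 CPM in WT. Its libraries overlapped, and its log2 fold change was 0.06 ± 0.06 (adjusted p = 0.44), with a 95% interval from -0.09 to 0.22.

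Among the karrikin branch repressors, SMAX1 had 142, 153 and 143 CPM in hy5, against 110.2, 109.7 and 110.0 CPM in WT. The WT libraries were nearly identical and all lay below the hy5 libraries. SMAX1 was 1.33-fold higher in hy5 (0.41 ± 0.06, adjusted p = 7.1e-05). SMXL2 had 29.6, 30.6 and 30.5 CPM in hy5 and 27.5, 27.1 and 24.3 CPM in WT, also without overlap. It was higher in hy5 (0.20 ± 0.07, adjusted p = 0.037), a call found under 5 of 15 alternative settings, whose adjusted p ran from 0.025 to 0.18.

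None of the 3 repressors of the strigolactone branch was called. SMXL7 had 29.1, 31.4 and 30.5 CPM in hy5 and 35.5, 35.1 and 31.0 CPM in WT, where the lowest WT library fell within the hy5 range. Its log2 fold change was -0.16 ± 0.07 (adjusted p = 0.075). It was called lower under 3 of 15 alternatives, those that scaled by library size alone or by upper quartile or left out WT replicate 3, with an adjusted p down to 0.022. SMXL6 had 38.6, 39.0 and 38.7 CPM in hy5, inside the WT values of 41.3, 36.7 and 38.8 CPM. Its log2 fold change was -0.01 ± 0.06 (adjusted p = 0.93), with a 95% interval from -0.15 to 0.14. SMXL8 had 43, 42 and 43 counts in hy5 and 41, 38 and 43 in WT, which did not overlap after scaling (1.97 to 2.05 CPM in hy5 and 1.74 to 1.93 CPM in WT). A small change is not detectable at this depth, and the 95% interval of its log2 fold change ran from -0.37 to 0.64.

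Of the response genes KUF1 was called and DLK2 was not. KUF1 had 11.5, 9.67 and 10.09 CPM in hy5, against 8.11, 8.16 and 9.20 CPM in WT, without overlap, and was 1.23-fold higher (0.29 ± 0.11, adjusted p = 0.039). That call was found under 5 of 15 alternatives, with an adjusted p of 0.03 to 0.16. DLK2 had 54, 80 and 88 counts in hy5 and 90, 117 and 97 in WT. The hy5 libraries lay below all WT libraries by count but overlapped after scaling, at 2.58, 3.75 and 4.15 CPM in hy5 and 4.01, 5.37 and 4.35 CPM in WT. Its log2 fold change was -0.39 ± 0.19 (adjusted p = 0.12), with a 95% interval from -0.85 to 0.08. The calls of MAX2, SMAX1 and D14 were found under all 15 alternatives.

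**Figure D2:**
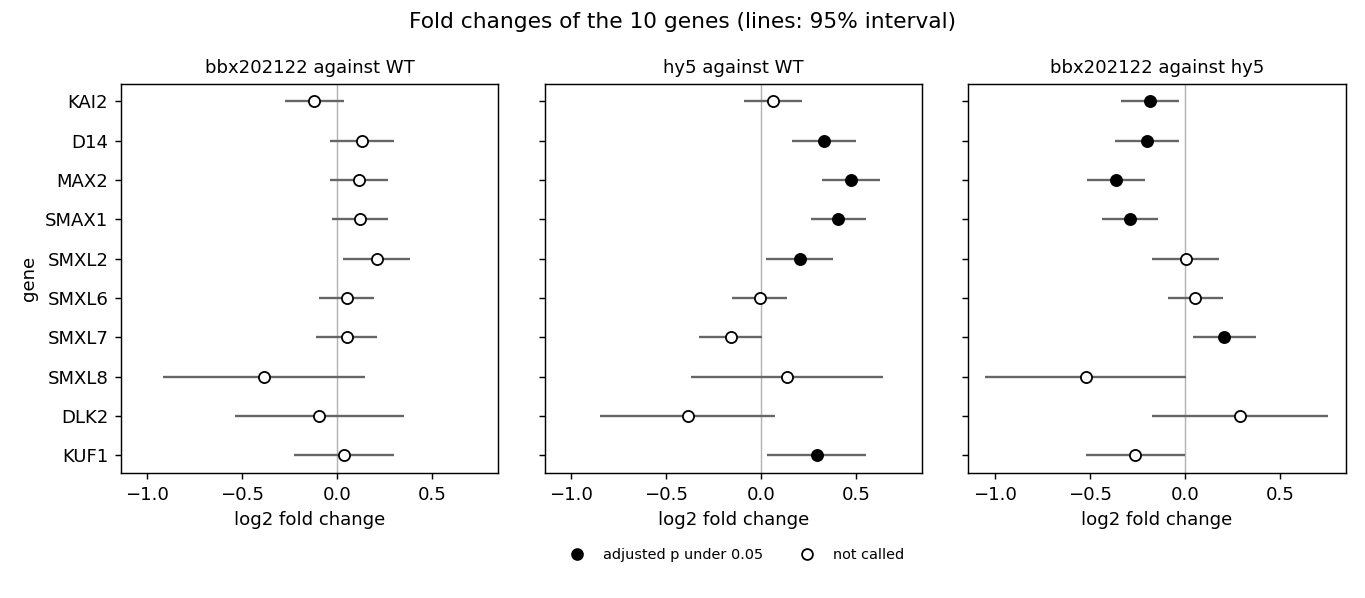
Log2 fold change of each gene in the 3 comparisons, with lines for the 95% interval and filled points for an adjusted p under 0.05. MAX2 (0.47) and SMAX1 (0.41) stand furthest above 0 in hy5 against WT, all 10 points are open in bbx202122 against WT, and 5 are filled in bbx202122 against hy5.

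The comparison of bbx202122 with WT asks the same of the B-box proteins BBX20, BBX21 and BBX22, which act with HY5. None of the 10 genes was called by edgeR (0 of 10), against 16.9% of all genes tested, 8.62% higher and 8.27% lower. At an unadjusted p under 0.05 there was 1, SMXL2, and DESeq2 and limma on log2 FPKM also called 0. The median log2 fold change of the 10 was 0.05, against 0.01 over all genes. The libraries did not overlap for 5 of the 10, against 32.5% of all genes.

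MAX2 had 41.8, 42.5 and 41.4 CPM in bbx202122, against 39.3, 36.3 and 40.5 CPM in WT. The bbx202122 libraries lay just above all WT libraries, and the log2 fold change was 0.11 ± 0.06 (adjusted p = 0.25), with a 95% interval from -0.04 to 0.27. SMAX1 had 113, 129 and 116 CPM in bbx202122, also above the WT libraries, with a log2 fold change of 0.12 ± 0.06 (adjusted p = 0.20). D14 had 32.1, 36.7 and 37.5 CPM in bbx202122 and overlapped with WT (0.13 ± 0.07, adjusted p = 0.22). The 95% intervals reach up to a log2 fold change of 0.27 in MAX2, 0.27 in SMAX1 and 0.30 in D14.

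SMXL2 had 27.99, 33.1 and 30.04 CPM in bbx202122, above all WT libraries. Its log2 fold change of 0.21 ± 0.07 (adjusted p = 0.063) was close to the 0.20 of hy5 against WT, and it was called higher without bbx202122 replicate 1 (adjusted p = 0.028). KAI2 had 37.6, 42.6 and 41.6 CPM in bbx202122, below all WT libraries, at -0.12 ± 0.06 (adjusted p = 0.22). SMXL6 had 39.0, 40.3 and 41.6 CPM and SMXL7 33.6, 36.9 and 34.7 CPM in bbx202122, and each had a log2 fold change of 0.05 (adjusted p = 0.64 and adjusted p = 0.68). SMXL8 had 21, 35 and 40 counts in bbx202122, with replicate 1 well below the others and all below WT after scaling (-0.38 ± 0.22, adjusted p = 0.26). KUF1, with 9.06, 9.45 and 7.61 CPM in bbx202122, was at 0.03 ± 0.11 (adjusted p = 0.87). DLK2, with 80, 91 and 122 counts, was at -0.10 ± 0.18 (adjusted p = 0.78), and its 95% interval from -0.54 to 0.35 is wide.

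The direct comparison of bbx202122 with hy5 tests whether the mutants differ, which the comparisons with WT, sharing the same WT libraries, cannot show. Of the 10 genes 4 were lower and 1 was higher in bbx202122, so 5 were called, against 23.0% of all genes (10.9% lower and 12.1% higher). Leaving out any 1 of the 6 libraries gave 2 or 3 calls, MAX2 and SMAX1 always among them. The libraries did not overlap for 8 of the 10, against 38.7% of all genes. The median log2 fold change was -0.19, against 0.01 over all genes.

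MAX2 was lower in bbx202122 than in hy5, at 41.9 ± 0.58 CPM in bbx202122 and 53.8 ± 3.4 CPM in hy5 (SD, n = 3 each; log2 fold change -0.36 ± 0.06, adjusted p = 0.00079). SMAX1 was lower too, at 119.5 ± 8.7 CPM in bbx202122 and 146 ± 5.9 CPM in hy5 (-0.29 ± 0.06, adjusted p = 0.0029). Both calls were found under all 15 alternatives. D14 averaged 35.4 ± 3.0 CPM in bbx202122 and 40.7 ± 2.0 CPM in hy5 (-0.20 ± 0.07, adjusted p = 0.048). KAI2 averaged 40.6 ± 2.6 CPM in bbx202122 and 46.1 ± 2.2 CPM in hy5 (-0.18 ± 0.06, adjusted p = 0.045). Each of these 2 calls was found under 3 of 15 alternatives, with adjusted p up to 0.2 in D14 and 0.19 in KAI2.

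SMXL7, a strigolactone branch repressor, was the gene higher in bbx202122, at 35.1 ± 1.6 CPM in bbx202122 and 30.3 ± 1.2 CPM in hy5 (0.21 ± 0.07, adjusted p = 0.036). That call was found under 9 of 15 alternatives, with an adjusted p of up to 0.14. SMXL2 differed by 0.00 ± 0.07 on the log2 scale (adjusted p = 0.98), with a 95% interval from -0.17 to 0.18. KUF1 (-0.26 ± 0.11, adjusted p = 0.091), SMXL8 (-0.52 ± 0.22, adjusted p = 0.096), DLK2 (0.29 ± 0.19, adjusted p = 0.30) and SMXL6 (0.06 ± 0.06, adjusted p = 0.53) were not called.

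Ratios within a library do not depend on scaling between libraries and describe how the repressor transcripts of the branches stood to each other. They do not measure repressor protein or signalling. The ratio of SMAX1 to SMXL7 in FPKM was 3.15, 3.29 and 3.15 in bbx202122, 4.59, 4.57 and 4.39 in hy5 and 2.92, 2.93 and 3.32 in WT. The hy5 libraries lay above all others, while those of bbx202122 lay within the WT range. That ratio restates values given above and is no separate result. In hy5 against WT, SMAX1 rose (0.41) and SMXL7 had the lowest log2 fold change of the strigolactone branch repressors (-0.16). SMXL6, at -0.01 there, was not used in it. The summed FPKM of SMAX1 and SMXL2 was 1.56, 1.72 and 1.53 times that of SMXL6, SMXL7 and SMXL8 in bbx202122, 2.08, 2.15 and 1.98 times in hy5 and 1.43, 1.51 and 1.55 times in WT. SMAX1 alone made up 46.9 to 49.1% of the summed FPKM of these 5 repressors in bbx202122, 53.5 to 55.7% in hy5 and 46.0 to 48.7% in WT. The sums that hold SMXL6 also depend on the length used for it, which differed between libraries. SMXL6 averaged 12.7 FPKM in hy5 and 13.9 FPKM in WT, but 38.8 CPM in hy5 and 39.0 CPM in WT. How far that length moved the ratio of sums and the share of SMAX1 was not tested. No test was made on these ratios, and ratios of other pairs of genes were not computed for comparison.

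Ratios to KAI2 in FPKM were also read per library, without a test. MAX2 stood at 0.613 to 0.685 of KAI2 in bbx202122, 0.692 to 0.752 in hy5 and 0.495 to 0.579 in WT. D14 stood at 0.765 to 0.809 of KAI2 in bbx202122, 0.773 to 0.809 in hy5 and 0.649 to 0.664 in WT. For D14 the mutants overlapped with each other and neither overlapped with WT, and for MAX2 no genotypes overlapped. How often ratios of other pairs of genes fail to overlap was not computed. In bbx202122 against WT none of the genes in these ratios was called. There KAI2 was at -0.12, D14 at 0.13 and MAX2 at 0.11, so the ratios combine opposite shifts that the tests did not call.

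**Figure D3:**
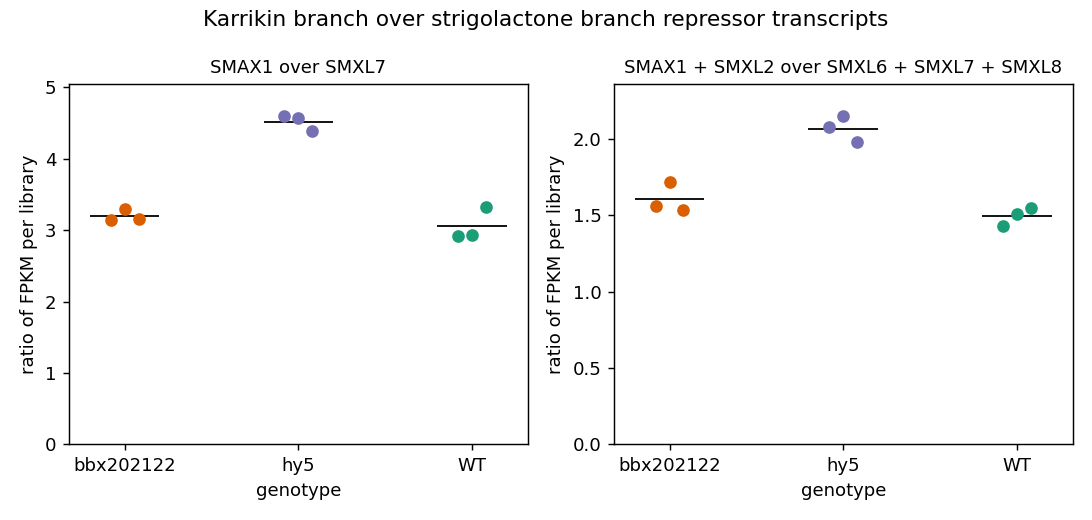
Ratio of FPKM in each library, with a line at the mean of 3 libraries, for SMAX1 over SMXL7 (left) and for the karrikin branch repressors over the strigolactone branch repressors (right). The hy5 libraries lie at 4.39 to 4.59 (left) and 1.98 to 2.15 (right), above all bbx202122 and WT libraries. Both ratios rest on the same libraries as the tests, in which SMAX1 rose in hy5, and are no separate result. The ratio on the right also depends on the length used for SMXL6, which differed between libraries.

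Other genes of the pathway were read from lists, to be set beside the share of all genes called, 39.5% in hy5 against WT (19.6% higher and 19.8% lower), 16.9% in bbx202122 against WT and 23.0% in bbx202122 against hy5. Of 9 genes for the partners of MAX2 in the SCF complex and for TOPLESS corepressors, which work with the SMXL repressors, 5 (55.6%) rose in hy5 and 0 fell, with a median of 0.15, and 1 (11.1%) was called in bbx202122 against WT. ASK2, an SCF adaptor gene (0.27 ± 0.07, adjusted p = 0.0043), TPR2 (0.26 ± 0.07, adjusted p = 0.0049) and TPL (0.21 ± 0.07, adjusted p = 0.02), both corepressor genes, and RBX1A, the RING subunit gene (0.18 ± 0.06, adjusted p = 0.026), rose. In bbx202122 RBX1A rose (0.19 ± 0.06, adjusted p = 0.038), and TPR4 was at -0.14 ± 0.05 (adjusted p = 0.073), the list median being 0.02. In bbx202122 against hy5, TPR2 (-0.25 ± 0.07, adjusted p = 0.011) and TPR4 (-0.16 ± 0.05, adjusted p = 0.037) were lower and 7 were not called. The related repressor genes SMXL3, SMXL4 and SMXL5, which neither receptor is known to target, gave 1 call in hy5 against WT, SMXL5 (0.19 ± 0.06, adjusted p = 0.026), with SMXL4 at -0.22 ± 0.09 (adjusted p = 0.076), and 0 in bbx202122 against WT, where SMXL3 was at 0.13 ± 0.09 (adjusted p = 0.35) and SMXL4 at -0.07 ± 0.09 (adjusted p = 0.66). The median of the 3 was 0.19 in hy5 and -0.01 in bbx202122. SMXL5 was lower in bbx202122 than in hy5 (-0.20 ± 0.06, adjusted p = 0.032), and SMXL4 was at 0.15 ± 0.09 (adjusted p = 0.29).

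Of 7 genes listed for strigolactone synthesis and breakdown, 6 passed the filter. AT5G06570, which the TAIR10.1 annotation describes as an alpha/beta-hydrolase superfamily protein, had 7.78, 11.1 and 8.63 CPM in bbx202122, 13.9, 13.1 and 11.6 CPM in hy5 and 4.68, 3.76 and 6.06 CPM in WT. No genotypes overlapped, and it rose in bbx202122 (0.92 ± 0.16, adjusted p = 0.0012) and in hy5 (1.41 ± 0.16, adjusted p = 5.02e-06). It was lower in bbx202122 than in hy5 (-0.49 ± 0.14, adjusted p = 0.021), where AT4G36470 was at -0.10 ± 0.08 (adjusted p = 0.40). D27, an isomerase gene at the start of strigolactone synthesis, fell in hy5 (-0.40 ± 0.12, adjusted p = 0.014) and was at -0.33 ± 0.12 in bbx202122 (adjusted p = 0.069). MAX1, a cytochrome P450 gene late in synthesis, rose in hy5 (0.21 ± 0.08, adjusted p = 0.038). Of the 6 genes 2 rose and 1 fell in hy5 (median 0.09), so 3 of 6 were called, against 39.5% of all genes. In bbx202122 1 of the 6 rose (median 0.04) and 0 fell, a share of 16.7% that is near the 16.9% of all genes. MAX3, a cleavage dioxygenase gene of the same route, had too few counts to test, 4 over the bbx202122 libraries, 0 over the hy5 libraries and 6 over the WT libraries.

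Of 8 genes reported to respond to karrikin, 7 passed the filter, and 2 rose and 4 fell in hy5 (list median -0.86), against 39.5% of all genes called. HY5, itself mutated in hy5, is among the 4. Without it 2 rose and 3 fell of 6 and the median was -0.48, a count added after the data were seen. GA3OX1 and GA3OX2 encode gibberellin 3-oxidases, which make active gibberellin. GA3OX1 fell to 5.14 ± 0.19 CPM in hy5, against 9.31 ± 0.93 CPM in WT (-0.86 ± 0.11, adjusted p = 1.7e-05), and GA3OX2 fell too (-3.28 ± 0.33). GA3OX2 had 5, 6 and 7 counts in bbx202122, 3, 3 and 5 in hy5 and 36, 33 and 46 in WT. It passed the filter only through its WT counts, so it could enter the test only where WT was high. The counts and medians of this list include it, but its falls add no support to them. So few counts in the mutants also leave the size of its falls uncertain. IAA6 and IAA1, auxin repressor genes, rose (IAA6 by 1.26 ± 0.15 and IAA1 by 0.82 ± 0.11). BBX20 had 1.91, 2.44 and 2.07 CPM in hy5, against 4.99, 4.31 and 4.40 CPM in WT, and fell (-1.09 ± 0.15). HY5 had 5.93, 6.84 and 6.25 CPM in bbx202122, 9.07, 9.10 and 6.50 CPM in hy5 and 15.5, 16.4 and 18.4 CPM in WT. In bbx202122 HY5 (-1.40 ± 0.12), GA3OX2 (-2.69 ± 0.30) and GA3OX1 (-0.35 ± 0.10, adjusted p = 0.028) fell and IAA6 (1.05 ± 0.15) rose, and the list median was -0.24, or -0.29 without BBX20, which is mutated there. In bbx202122 against hy5, 2 were higher, BBX20 (0.93 ± 0.15) and GA3OX1 (0.51 ± 0.11), and 2 were lower, IAA1 (-0.63 ± 0.10) and HY5 (-0.38 ± 0.13). Without BBX20 and HY5, 1 of 5 was higher and 1 lower. HY5 is mutated in hy5 and BBX20 in bbx202122, so their own levels there are not those of response genes. The list was not split by the direction in which karrikin is reported to move each gene. Its counts and medians therefore do not measure a shift of the karrikin response.

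Of 9 genes reported to respond to strigolactone, 8 were listed in the files, MYB113 being absent, and 2 passed the filter. MYB75, an anthocyanin activator gene, rose in hy5 (1.41 ± 0.20, adjusted p = 6.6e-05), as did its relative MYB90 (1.34 ± 0.41, adjusted p = 0.016), and neither was called in bbx202122 (MYB90 at 0.59 ± 0.44, adjusted p = 0.41, and MYB75 at 0.28 ± 0.22, adjusted p = 0.45). In bbx202122 against hy5 MYB75 was lower (-1.13 ± 0.20, adjusted p = 0.00085) and MYB90 was at -0.75 ± 0.38 (adjusted p = 0.17). BRC1, the branching repressor gene on which strigolactone acts in buds, had 0 counts over the bbx202122 libraries, 2 over the hy5 libraries and 2 over the WT libraries. HB40, a homeobox gene that BRC1 activates, had 10 counts over the bbx202122 libraries, 8 over the hy5 libraries and 34 over the WT libraries. Its relative HB21 had 5 counts over the bbx202122 libraries, 21 over the hy5 libraries and 6 over the WT libraries. Of the 21 in hy5, 12 came from replicate 1, with 5 in replicate 2 and 4 in replicate 3. HB53, another relative, had 7 counts over the bbx202122 libraries, 5 over the hy5 libraries and 9 over the WT libraries. None of the 3 was tested.

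**Figure D4:**
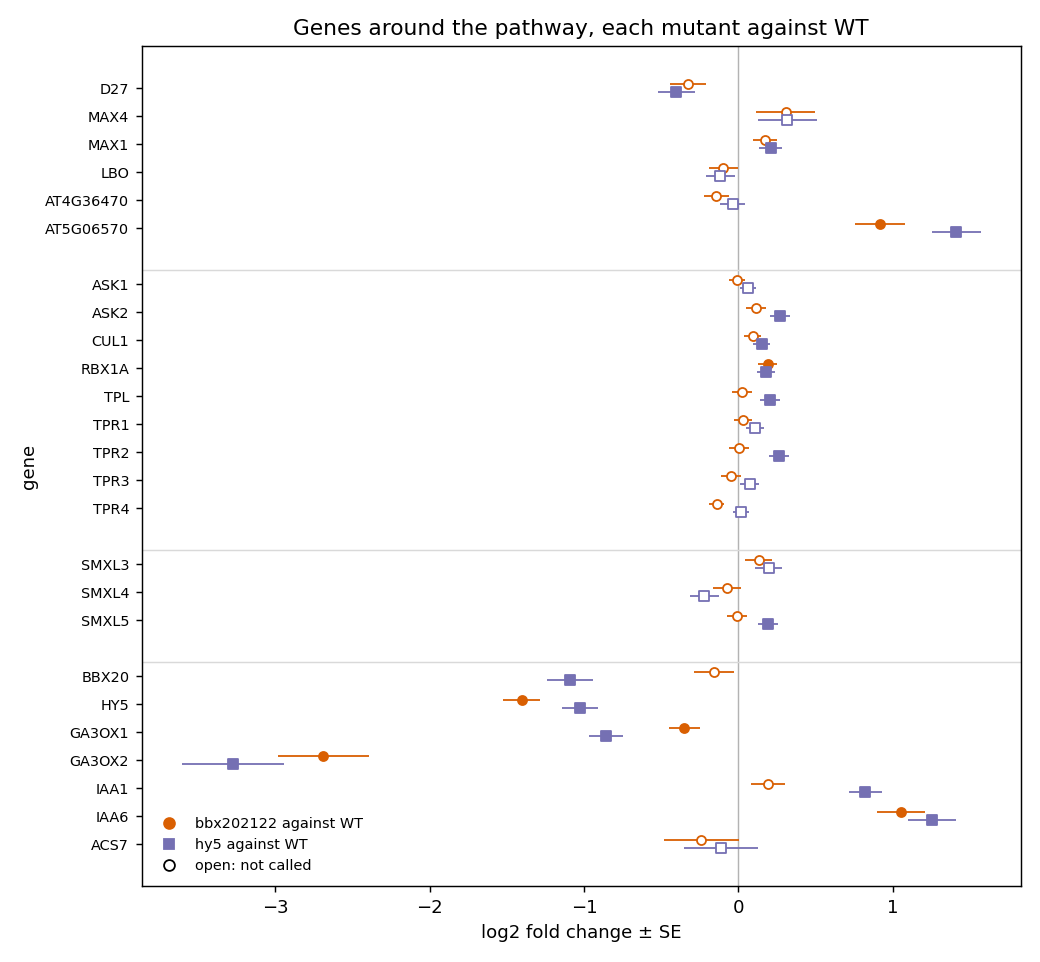
Log2 fold change ± SE against WT for the tested genes of 4 lists, from top to bottom strigolactone synthesis and breakdown, SCF partners and corepressors, SMXL3 to SMXL5, and reported karrikin-responsive genes, with circles for bbx202122 and squares for hy5, filled where called. AT5G06570 and IAA6 lie furthest to the right and GA3OX2 furthest to the left in both mutants, where GA3OX2 rests on few counts.

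The members whose genotype means differed most on the log2 scale were SMXL8 (0.53), which rests on few counts, and MAX2 (0.47). The genes nearest to each in profile were searched among 15784 genes that averaged 5 CPM or more, by the root mean square distance between log2(CPM + 1) values over the 9 libraries, each gene centred on its mean. Nearest to MAX2 were MYB3 (distance 0.026), MEE59 (0.028), AT5G37540 (0.032) and UVR8 (0.035), which had 20.9, 163, 22.5 and 104 CPM in bbx202122, 27.7, 204.5, 28.3 and 127 CPM in hy5 and 19.6, 150.0, 20.1 and 91.2 CPM in WT, in that order. Nearest to SMXL8 were HSP70 (0.058), MIPS1 (0.067), AOX1A (0.072) and BAM1 (0.081). They had 70.4, 151, 31.1 and 52.1 CPM in bbx202122, in that order. In hy5 they had 83.6, 200, 39.3 and 69.3 CPM, and in WT 84.8, 185, 34.3 and 64.7 CPM. HSP70 was thus slightly lower in hy5 than in WT, while SMXL8 averaged 2.02 CPM in hy5 and 1.83 CPM in WT. The added 1 narrows the profile of a gene as low as SMXL8. With 9 libraries that all genes share, such distances describe likeness of profile only.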

How the data were processed

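Per the submitters' processing notes, the authors used HISAT, Bowtie2 2.2.5 and RSEM 1.2.12 with the build TAIR10, without stating their roles or the version of HISAT. The deposited files hold, per library and gene, expected counts, which are unscaled estimates, and FPKM, which the authors scaled to transcript length and library size. The lowest FPKM listed is 0.01, and genes absent from a library's file were taken as 0.

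Rounded expected counts of the 9 libraries entered 1 edgeR model (edgeR 4.0.16, R 4.3.3) with genotype as the factor, TMM scaling and filterByExpr (20751 genes, 6 residual degrees of freedom). Each comparison was tested two-sided with the quasi-likelihood F test and adjusted by Benjamini-Hochberg over all genes. SEs derive from the fitted log2 fold change and F, and 95% intervals use 6 degrees of freedom, which makes them wider than the moderated test. Alternatives included DESeq2 1.42.0 and limma 3.58.1 on log2(FPKM + 1) and log2(FPKM + 0.1). The edgeR, DESeq2 and limma fits were tested on simulated data, limma on counts scaled by depth and not on FPKM. The changes planted there were larger than any change of the 10 members, so that test does not cover changes as small as theirs. Names, coordinates and sequence come from the RefSeq copy of TAIR10.1, in which 24436 of 24640 identifiers matched. The members and lists were chosen with earlier results of these data known. All 10 members were named. Of each other list the up to 4 called genes with the smallest adjusted p per comparison were named, or the 2 with the smallest where fewer than 2 were called. BRC1, HB40, HB21, HB53 and MAX3, and BBX20 and IAA1 in hy5 against WT, fall outside that rule and were named after their values were seen.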

Additional observations from a re-analysis of the deposited data

How the results depend on the processing

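Each result was recomputed under 15 alternatives, which changed the scaling, the tool, the filter, the libraries in the fit, the replicate block or the unit or left out 1 library. Of 444 values for single genes, 381 kept their direction and their side of the threshold, 50 lost and 4 gained a call, and 9 changed sign. Most of the 444 belong to comparisons of a gene that were not called in the report and could not lose a call. All 50 losses fell on 5 calls. In hy5 against WT, SMXL2 and KUF1 each kept theirs under 5 of 15 alternatives. In bbx202122 against hy5, KAI2 and D14 each kept theirs under 3 of 15 and SMXL7 under 9 of 15. Members called in hy5 against WT numbered 5 in the report, 3 with DESeq2, 3 with either limma fit and 3 to 5 without 1 replicate. In bbx202122 against hy5 they numbered 5 in the report, 2 with DESeq2, 2 to 3 without 1 replicate, and 3 with library size alone, with upper-quartile scaling, with only the 2 genotypes fitted, with the replicate block and with either limma fit. In bbx202122 against WT they numbered 0, or 0 to 1 without 1 replicate. SMXL8 was under the filter of both limma fits. The cause of these differences was not tested.

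The sign changed in genes that were not called. In bbx202122 against WT, leaving out 1 replicate gave SMXL7 values of -0.017 (without WT replicate 3) to 0.084, DLK2 values of -0.27 to 0.031 (without WT replicate 2; 0.024 without bbx202122 replicate 1) and KUF1 values of -0.036 (without bbx202122 replicate 2) to 0.11. In hy5 against WT, SMXL6 ran from -0.050 to 0.038 (without WT replicate 1) when 1 replicate was left out, and its lowest value over all 15 alternatives was -0.13, with limma on log2(FPKM + 0.1). In bbx202122 against hy5, SMXL2 was at -0.0060 with DESeq2 size factors, -0.0074 with DESeq2, and -0.064 (without bbx202122 replicate 2) to 0.059 without 1 replicate, with -0.013 without hy5 replicate 1.

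The replicate block used the shared replicate numbers. Deviations of same-numbered libraries correlated at -0.079 to -0.033 in bbx202122 against WT and at -0.050 to -0.023 in hy5 against WT. In bbx202122 against hy5 they correlated at 0.037 to 0.14, above the -0.091 to 0.029 of unlike numbers. Whether the numbers pair the libraries of the 2 mutants was not tested. With the block 4 members were called in hy5 against WT, 3 in bbx202122 against hy5 and 0 in bbx202122 against WT. With library size alone, 38.2% of all calls in hy5 against WT were higher, against 49.7% with TMM, and 72.5% against 52.6% in bbx202122 against hy5. With upper-quartile scaling these shares were 38.1% and 62.9%, and with limma on log2(FPKM + 1) 38.9% and 72.4%. No scaling moved the median of all genes by over 0.1. Depth limits SMXL8 (96 to 128 counts per genotype) and DLK2 (222 to 304).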
